A study of Mus musculus with 7 samples.

Results

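Testes were taken at 10.5 days post-partum (dpp) and kept for 12 days in organ culture. They were compared, miRNA by miRNA, with uncultured testis of the starting age. The comparison used 3 of the 7 small RNA libraries of the study: T10 (10.5 dpp testis, no culture), T10-12K (12 culture days in medium with KSR) and T10-12A (12 culture days in medium with AlbuMAX I), and all 331 mature miRNAs of the deposited table were followed. KSR is a serum replacement for cell culture, and in the second medium it was exchanged for AlbuMAX I, an albumin preparation of bovine serum that carries lipids. The other 4 libraries were T6, T6-12K and T6-12A, the matching set from 6.5 dpp testes, and TAD, uncultured testis of an adult of 2 months. All mice were of the outbred strain CD1. The tags of the samples give the starting ages as 6 and 10 dpp, the descriptions as 6.5 and 10.5 dpp. The explants lay on agarose blocks at the border of gas and medium at 34 °C with 5% CO2, and at 10.5 dpp an explant was a piece of a testis cut for culture. Per the methods of the study, a pair of explants was homogenized for an RNA isolation. Each condition had 1 library, so no spread between animals or cultures could be measured. No library held uncultured testis 12 days older than T10, so 12 days of development and an effect of culture cannot be told apart. No difference was tested, and every interval given here is a 95% interval for counting error only.

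The testis at 10.5 dpp holds somatic cells, spermatogonia and the first germ cells in meiosis. miRNAs are short RNAs cut from hairpin precursors, and they lower the translation or stability of mRNAs that pair with their seed, the bases at positions 2 to 8 from the 5′ end. Members of a family share a seed, and miRNAs from neighbouring precursors are often made from a single transcript. In the testis, the miR-34/449 family is known from germ cells in meiosis and spermatids. miR-21, miR-210 and miR-146 are known from other tissues as miRNAs that react to injury, low oxygen and inflammatory signals, respectively. The miRNAs of the Dlk1-Dio3 locus are transcribed from the maternal chromosome and are abundant in embryonic and fetal tissue.

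The levels are given as CPM, the reads of a miRNA scaled so that all listed miRNAs of its library sum to 1000000. The reads summed to 13397407 in T10, 7075528 in T10-12K and 8452588 in T10-12A, after division of the deposited values by the worth of 1 read. A miRNA listed at 0 was set to 5 reads for a ratio, which makes that ratio a lower bound of the difference. A miRNA was called higher or lower when it differed at least 2-fold from T10, which is 1 on the log2 scale. It was called in one medium only when it passed 2-fold there and stayed under 1.5-fold in that direction in the other. Of the 331 miRNAs, 288 had a mature sequence in the RefSeq table used here (GRCm38.p6).

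The sequences that the results turn on are printed 5′ to 3′, with the seed in capitals. The miR-34 and miR-449 members below share 1 seed, although miR-34a-5p was not called while the others were higher in both media.
miR-449a-5p: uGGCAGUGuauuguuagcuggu
miR-449c-5p: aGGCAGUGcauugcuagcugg
miR-34b-5p: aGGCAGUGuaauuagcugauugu
miR-34a-5p: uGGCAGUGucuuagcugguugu
A further set of called miRNAs came in pairs with a common seed, both members higher in both media.
miR-146a-5p: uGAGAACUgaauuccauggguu
miR-146b-5p: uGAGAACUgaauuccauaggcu
miR-221-3p: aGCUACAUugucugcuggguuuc
miR-222-3p: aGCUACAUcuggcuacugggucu
Other miRNAs higher in both media are shown because the study names them or, for miR-7210-5p, because its ratio was the largest.
miR-21a-5p: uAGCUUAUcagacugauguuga
miR-101a-3p: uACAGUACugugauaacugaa
miR-210-3p: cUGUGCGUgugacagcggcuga
miR-7210-5p: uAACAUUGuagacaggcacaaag
In the next pairs the members share a seed and differed in their change.
miR-29a-3p: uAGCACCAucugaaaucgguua
miR-29c-3p: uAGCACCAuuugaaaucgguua
miR-7229-5p: uAGUAGACaucccuggauagc
miR-411-5p: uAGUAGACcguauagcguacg
let-7a-5p: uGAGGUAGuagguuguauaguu
let-7e-5p: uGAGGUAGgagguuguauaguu
The last set holds miRNAs among the largest falls shared by both media, taken from those averaging 100 CPM or more.
miR-381-3p: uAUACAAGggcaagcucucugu
miR-410-3p: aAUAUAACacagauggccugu
miR-127-3p: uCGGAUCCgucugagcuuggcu
miR-423-5p: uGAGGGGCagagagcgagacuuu

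In both media more miRNAs were lower than higher after 12 culture days. Of the 329 miRNAs with reads in T10 or in both cultured libraries, 26 were at least 2-fold higher in both media (7.9%) and 107 at least 2-fold lower in both (32.5%). With KSR 27 miRNAs were higher (8.21%) and 132 lower (40.1%) of 329. With AlbuMAX I 35 were higher (10.6%) and 137 lower (41.4%) of 331. These 26 and 107 miRNAs are referred to as shared rises and shared falls, by their fold and not by a test. No miRNA was 2-fold higher in one medium and 2-fold lower in the other. Both ratios have T10 as their denominator, so any deviation of that library appears in both media. Counted at any size, 67 miRNAs were higher in both media (20.4%), 238 were lower in both (72.3%) and 24 were split between the media.

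The median log2 ratio to T10 over all miRNAs was -0.76 with KSR and -0.78 with AlbuMAX I, so the split between rises and falls has to be read beside it. CPM values are shares, and a few abundant miRNAs filled most of each library. miR-10b-5p, annotated within introns of Hoxd3 and Hoxd4, held 44.6% of the reads in T10, 48.9% in T10-12K and 50.6% in T10-12A. With miR-143-3p, a smooth muscle miRNA, it held 59.1%, 68.9% and 68.2%. With size factors from the median of ratios, which centre the ratios on the typical miRNA, the log2 ratios were shifted up by 0.71 with KSR and 0.69 with AlbuMAX I. The counts then became 50 higher and 55 lower in both media. The scaling moves the log2 ratios of all miRNAs in a library by the same amount, so it changes the balance of rises and falls but not the order of the miRNAs.

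Together the 26 miRNAs held 0.601% of the reads in T10, 1.98% in T10-12K and 2.52% in T10-12A. The 107 held 4.73% in T10, 1.56% in T10-12K and 1.45% in T10-12A. None of the 11 most abundant miRNAs, those averaging 10000 CPM or more over the 3 libraries, was called in both media, and their median log2 ratio was -0.27 in each medium. Among the 105 miRNAs below 10 CPM, 45.7% were lower in both media, with medians of -1.22 with KSR and -1.32 with AlbuMAX I. The counting interval excluded no change in both media for all 26 rises and all 107 falls, and it lay wholly past 2-fold in both media for 23 and 79 of them. The same reads made the calls, so these intervals are no separate support for them. At the limits of the rule, miR-329-5p (-1.01, the smaller of both log2 ratios) and miR-101a-3p (1.02) were just inside, miR-878-5p (-0.99) and miR-1247-5p (0.88) just outside.

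**Figure D1:**
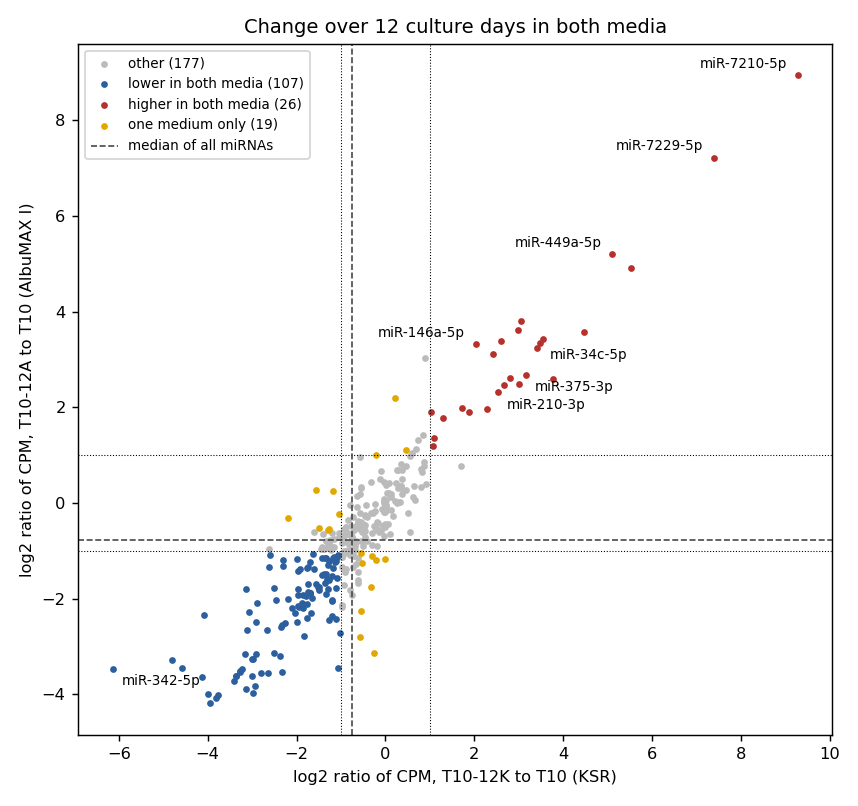
Each point is a miRNA, with the log2 ratio of T10-12K to T10 on the x axis and of T10-12A to T10 on the y axis. Dotted lines mark 2-fold and dashed lines the medians of all miRNAs (-0.76 and -0.78). Of the 26 shared rises, 19 lie past 4-fold in both media, and the rest are nearer the cloud of 177 other miRNAs. The 107 shared falls continue the cloud downwards.

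The miR-34/449 family had 7 listed members, of which 6 were higher in both media, against 7.9% of all miRNAs, and none lower. Their median log2 ratio was 3.49 with KSR and 3.35 with AlbuMAX I, which is 4.25 and 4.13 above the medians of all miRNAs. The summed level of the family was 229 CPM in T10, 2048 CPM in T10-12K and 1928 CPM in T10-12A. miR-34c-5p, the most abundant member, stood at 142 CPM in T10, 1588 CPM in T10-12K and 1445 CPM in T10-12A. Both cultured libraries were far above T10 and close to each other. The log2 ratio of miR-34c-5p was 3.49 (3.42 to 3.56) with KSR and 3.35 (3.28 to 3.42) with AlbuMAX I. miR-449a-5p was at 6.05 CPM in T10, 208 CPM in T10-12K and 224 CPM in T10-12A, log2 ratios of 5.11 (4.79 to 5.43) and 5.21 (4.89 to 5.53).

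Other members of the family were near or below 10 CPM at the start. miR-34b-5p was at 10.4 CPM in T10, 121 CPM in T10-12K and 112 CPM in T10-12A, and miR-449c-5p at 4.03, 32.1 and 49.1 CPM. The passenger arms miR-34b-3p (1.49, 12.0 and 8.40 CPM) and miR-34c-3p (0.746, 10.2 and 4.50 CPM) were higher as well. miR-34a-5p, which is expressed in many somatic tissues, had 64.3 CPM in T10, 75.9 CPM in T10-12K and 85.7 CPM in T10-12A, and it was not called. It has the same seed as miR-449a-5p, miR-449c-5p and miR-34b-5p but comes from a locus of its own. miR-34b and miR-34c lie side by side on chromosome 9 of GRCm38, from 51103034 to 51103645, on the strand opposite to Btg4 and within an intron of it. miR-449c and miR-449a share an intron of Cdc20b on chromosome 13 (113035983 to 113037624). In the adult library, given here as a level only, miR-34c-5p had 20424 CPM, miR-449a-5p 2771 CPM and miR-34a-5p 138 CPM. In a bulk library, a larger number of cells of a type and more of a miRNA per cell cannot be told apart, which holds for every change described here.

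miRNAs known from injury, low oxygen and inflammation formed the second group of rises. Of 7 listed members, 5 were higher in both media, against 7.9% of all miRNAs, with list medians of 1.72 with KSR and 1.90 with AlbuMAX I. The count was 6 with the median of ratios, 7 with the trimmed mean of M-values and 4 with the values as deposited. miR-21a-5p had 2359 CPM in T10, 7751 CPM in T10-12K and 9291 CPM in T10-12A, the highest level of all 26 rises. It moved from rank 32 of the listed miRNAs in T10 to rank 13 in T10-12K and rank 11 in T10-12A, and its log2 ratio was 1.72 (1.70 to 1.74) with KSR and 1.98 (1.96 to 2.00) with AlbuMAX I. Its precursor overlaps an exon of Vmp1 on chromosome 11 (86584067 to 86584158). miR-210-3p, the miRNA best known from hypoxia, was at 48.1 CPM in T10, 278 CPM in T10-12K and 239 CPM in T10-12A. Its log2 ratios were 2.53 (2.40 to 2.66) and 2.31 (2.19 to 2.44), and its other arm miR-210-5p was higher too, at 5.97, 22.0 and 22.4 CPM. In the adult library, where 5 reads were worth 3.07 CPM, miR-210-3p had 7.98 CPM, below all 3 libraries of 10.5 dpp testis.

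The miR-146 pair shares a seed, comes from different chromosomes and was higher in both media by unequal amounts. miR-146b-5p had 1442 CPM in T10, 3533 CPM in T10-12K and 4977 CPM in T10-12A, log2 ratios of 1.29 (1.27 to 1.32) and 1.79 (1.76 to 1.81). With the values as deposited its ratio with KSR was 0.96, which is under 2-fold. miR-146a-5p, a brake on inflammatory signalling, had 47.9 CPM in T10, 197 CPM in T10-12K and 478 CPM in T10-12A. This was a 4.11-fold rise with KSR and a 9.98-fold rise with AlbuMAX I, and the log2 ratio of T10-12A to T10-12K was 1.28 (1.19 to 1.37). Among the 118 miRNAs that averaged 100 CPM or more, a 2-fold difference between the media was found in 1, miR-146a-5p. The remaining members of the list were miR-132-3p (9.40, 11.3 and 15.3 CPM) and miR-21a-3p (7.17, 23.2 and 12.2 CPM), which was past 2-fold with KSR alone but 1.70-fold higher with AlbuMAX I.

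Against 7.9% of all miRNAs, all 3 listed miRNAs of the miR-221 and miR-222 locus were higher in both media. These miRNAs repress inhibitors of the cell cycle and the receptor Kit, and both precursors lie on the X chromosome from 19146294 to 19146971. miR-222-3p was at 46.4 CPM in T10, 226 CPM in T10-12K and 180 CPM in T10-12A, and miR-221-3p at 17.5, 112 and 96.9 CPM. The levels of both were slightly higher with KSR than with AlbuMAX I. The log2 ratio of miR-222-3p was 2.29 (2.15 to 2.42) with KSR and 1.96 (1.82 to 2.09) with AlbuMAX I. miR-221-5p, the other arm, was at 1.94, 20.6 and 18.3 CPM.

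Further shared rises were found in single members of other families. miR-375-3p, known from endocrine cells and from germ cells, had 86.7 CPM in T10, 778 CPM in T10-12K and 552 CPM in T10-12A, log2 ratios of 3.17 (3.08 to 3.26) and 2.67 (2.58 to 2.76). miR-29a-3p, a repressor of collagen genes, was at 25.6 CPM in T10, 138 CPM in T10-12K and 222 CPM in T10-12A. Its log2 ratios were 2.43 (2.26 to 2.61) and 3.11 (2.95 to 3.28), while miR-29c-3p, which differs from it by the single substitution C10U counted from the 5′ end, was at 6.12, 7.91 and 9.82 CPM and was not called. miR-101a-3p was at 1599 CPM in T10, 3244 CPM in T10-12K and 5985 CPM in T10-12A. It lay close to the limit of the rule, since its log2 ratio with KSR was 1.02 (0.99 to 1.05) and was 0.69 with the values as deposited. miR-501-3p, from an intron of Clcn5, was at 151, 315 and 347 CPM, log2 ratios of 1.06 and 1.20. The values as deposited shift log2 ratios by -0.33 with KSR and -0.30 with AlbuMAX I, which takes both of its ratios under 2-fold. The rest of the 26 were low in every library, among them miR-184-3p (9.85, 21.1 and 25.2 CPM), miR-6412 (1.72, 12.0 and 10.5 CPM) and miR-6240 (0.522, 11.6 and 6.27 CPM).

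The largest ratios belonged to miRNAs with few or no reads in T10. miR-7210-5p had 1.72 CPM in T10 (23 reads), 1072 CPM in T10-12K and 845 CPM in T10-12A, log2 ratios of 9.29 (8.70 to 9.88) and 8.94 (8.35 to 9.53). Its precursor lies on chromosome 14 from 24088877 to 24088930, in no annotated gene, and little is known of its function. In TAD it had 8980 CPM, and in T6 0.374 CPM. Of the 5 listed miRNAs of the miR-7200 series, 4 were higher in both media, against 7.9% of all miRNAs. In T10, 4 of the 5 were listed at 0. Those 4 are listed only through their reads in other libraries, and they could not have been called lower. miR-7229-5p, listed at 0 in T10, had 63.2 CPM in T10-12K and 55.7 CPM in T10-12A, which is at least 169-fold and at least 149-fold higher. miR-7230-5p (3.11 and 5.21 CPM in the cultured libraries), miR-7214-5p (2.26 and 3.90 CPM) and miR-468-5p (17.2 and 11.2 CPM) were also listed at 0 in T10. The fifth member, miR-7217-3p, was listed at 0 in T10 and T10-12K and had 0.710 CPM in T10-12A.

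**Figure D2:**
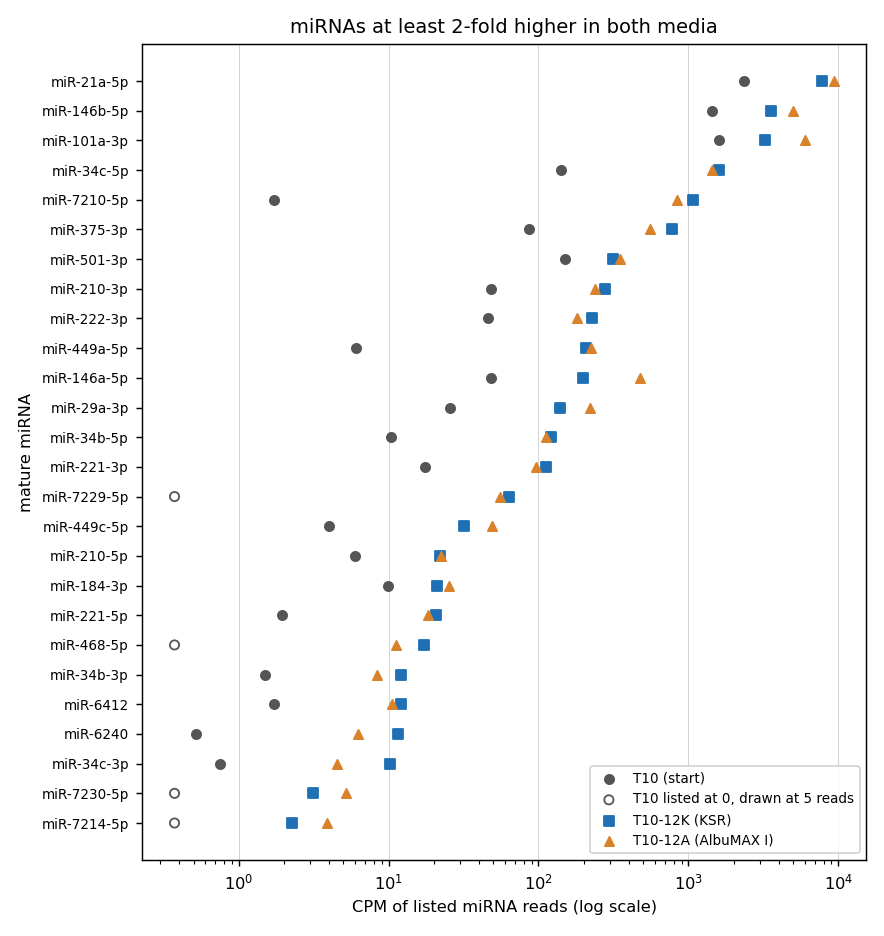
CPM on a log scale (x axis) of the 26 miRNAs called higher in both media (y axis, ordered by T10-12K), with T10 as circles, T10-12K as squares and T10-12A as triangles; open circles are listed at 0 in T10 and drawn at 5 reads. In every row both cultured libraries lie to the right of T10, from 2.26 CPM for miR-7214-5p to 7751 CPM for miR-21a-5p in T10-12K.

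The largest block of falls came from the Dlk1-Dio3 locus, an imprinted region of chromosome 12. Of its 38 listed miRNAs, 35 were lower in both media and none was higher, with medians of -2.33 with KSR and -2.47 with AlbuMAX I. They made up 32.7% of all shared falls. Outside the locus, 72 of 291 miRNAs (24.7%) were lower in both media, with medians of -0.62 in each. With the median of ratios, 25 of the 38 were still called lower in both media. The summed level of the locus was 14559 CPM in T10, 3924 CPM in T10-12K and 3447 CPM in T10-12A. The 37 miRNAs with a position in the annotation spanned 109571990 to 109743795 on chromosome 12 of GRCm38.

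miR-127-3p, the most abundant member, is transcribed antisense to an exon of the retrotransposon-derived gene Rtl1, which it can silence. It had 8673 CPM in T10, 2512 CPM in T10-12K and 2235 CPM in T10-12A, log2 ratios of -1.79 (-1.81 to -1.76) and -1.96 (-1.98 to -1.93). miR-411-5p was at 2398 CPM in T10, 562 CPM in T10-12K and 525 CPM in T10-12A, and miR-541-5p at 984, 267 and 229 CPM. In each case the cultured libraries were close to each other and well below T10. miR-410-3p, in an exon of the long non-coding RNA Mirg at the end of the locus, was at 498 CPM in T10, 88.0 CPM in T10-12K and 56.7 CPM in T10-12A. The largest fall by the naming rule was that of miR-381-3p, from 265 CPM in T10 to 33.5 CPM in T10-12K and 27.6 CPM in T10-12A, log2 ratios of -2.98 (-3.17 to -2.79) and -3.27 (-3.46 to -3.07). The falls were not confined to a stretch of the locus. Of the 11 miRNAs between 109585789 and 109595388 all were lower in both media, and of the 23 between 109709060 and 109743795, 20 were. The 3 members not called in both media were miR-379-5p (40.1, 25.3 and 22.7 CPM), miR-668-3p (13.9, 7.07 and 3.08 CPM) and miR-376b-5p (7.39, 3.11 and 4.02 CPM).

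**Figure D3:**
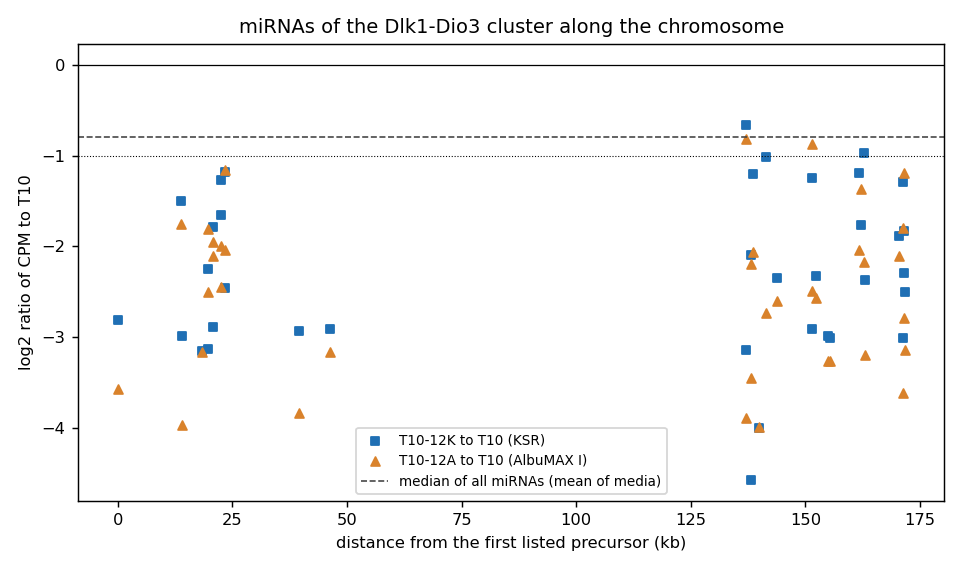
Log2 ratios to T10 (y axis) of the Dlk1-Dio3 miRNAs with a known position, against the distance of their precursor from the first one (x axis, kb), with KSR as squares and AlbuMAX I as triangles. All points lie below 0 and nearly all below the median of all miRNAs (dashed), from the first member miR-673-3p (-2.81 and -3.56) to the last, miR-410-3p (-2.50 and -3.13).

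Among the let-7 miRNAs, which repress growth and pluripotency genes, let-7e-5p changed apart from its family. It had 3129 CPM in T10, 784 CPM in T10-12K and 557 CPM in T10-12A, 3.99-fold and 5.62-fold lower than at the start, and its log2 ratio with AlbuMAX I was -2.49 (-2.53 to -2.45). It was the only one called in both media of the 11 listed members of the let-7 and miR-98 family. The family median was -0.14 with KSR and -0.19 with AlbuMAX I, and it turned positive with the median of ratios (0.57 and 0.51). let-7a-5p, which differs from let-7e-5p by the single substitution U9G next to the seed, was at 12831 CPM in T10, 9276 CPM in T10-12K and 8521 CPM in T10-12A. let-7f-5p was at 45639, 44337 and 40096 CPM. Reads of such close sequences can be shared between members, and how they were assigned is not given in the sources used here. The precursor of let-7e is in an intron of Spaca6 on chromosome 17 (17830352 to 17830444), next to miR-125a and miR-99b. Those neighbours did not follow it, with miR-125a-5p at a mean log2 ratio of both media of -0.24 and miR-99b-5p at -0.25, against -2.24 for let-7e-5p.

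Other falls of abundant miRNAs lay outside that locus. miR-423-5p, from an intron of Nsrp1, was at 892 CPM in T10, 140 CPM in T10-12K and 142 CPM in T10-12A, log2 ratios of -2.67 (-2.77 to -2.58) and -2.65 (-2.74 to -2.57). Its other arm, miR-423-3p, had a mean log2 ratio of both media of -0.83. miR-1195 was at 272 CPM in T10, 31.5 CPM in T10-12K and 43.3 CPM in T10-12A. miR-672-5p, from an intron of the X-linked gene Nexmif, was at 367, 108 and 69.2 CPM, and miR-322-3p, the minor arm of a precursor on the X chromosome, at 241, 66.6 and 62.9 CPM. Of the 8 listed miRNAs from miR-322 to miR-450, 4 were lower in both media, against 32.5% of all miRNAs, and 1 was with the median of ratios or the trimmed mean of M-values.

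Testis miRNAs of the X chromosome, a group of precursors expressed in germ cells and Sertoli cells, were high in every library. The summed level of the 26 listed was 95943 CPM in T10, 58999 CPM in T10-12K and 68401 CPM in T10-12A. Of them 10 were lower in both media, against 32.5% of all miRNAs, and none was higher. The medians of the list were -0.99 and -1.06, near the -0.76 and -0.78 of all miRNAs. With the median of ratios 1 was lower and 2 were higher. miR-470-5p, the most abundant, was at 39258 CPM in T10, 28645 CPM in T10-12K and 32497 CPM in T10-12A, and miR-871-3p at 30652, 16058 and 20870 CPM. miR-465a-3p, miR-465b-3p and miR-465c-3p have the same mature sequence. The latter pair carried equal read numbers (4322, 707 and 740 reads), and miR-465a-3p had 2161, 353 and 370 reads, or 0.499 to 0.50 of the reads of either. The 3 names are therefore no separate measurements, although all 3 count among the 107 falls and the 10 falls of this list.

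Among the remaining families, 4 of the 7 listed miR-181 members were lower in both media (medians -1.27 and -1.24), as were 3 of 13 of the miR-17-92 cluster and its relatives (-1.16 and -0.84), which act in proliferation. Of all miRNAs 32.5% were, and with the median of ratios 1 of the 7 and 1 of the 13 were called lower. miR-181a-5p, the most abundant of its family, was at 16928, 9077 and 8453 CPM, under 2-fold with KSR (log2 ratio -0.90) and just past it with AlbuMAX I. miR-25-3p was at 2067 CPM in T10, 615 CPM in T10-12K and 813 CPM in T10-12A. Of the 12 miR-30 members 3 were lower, of 6 miR-15/16 members 1, of 6 of the miR-148 and miR-152 family 1, and of 2 listed from the pluripotency clusters miR-290 and miR-302 1, miR-293-5p. Of the miR-30 members 1 was lower with the median of ratios, and of the miR-15/16 and the miR-148 and miR-152 members none was. None of the 10 members of the miR-99/100 and miR-125 families, the 8 of the miR-23/24/27 clusters, the 5 of the miR-130 and miR-301 family or the 3 of the miR-26 family was called in both media, but 4 of the miR-23/24/27 members were higher in both with the median of ratios or the trimmed mean of M-values. Of the miR-99/100 and miR-125 members 1 was higher with the former. The signs of the medians of the miR-15/16, miR-148 and miR-152, miR-99/100 and miR-125, miR-26 and miR-23/24/27 lists were not the same under all scalings. Of 5 Hox cluster miRNAs, miR-615-3p (22.7, 9.89 and 4.38 CPM) was lower, and none was with the median of ratios. miR-202, a gonad miRNA, had its 5p arm at 228, 136 and 139 CPM and its 3p arm at 6.57, 11.7 and 17.6 CPM.

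**Figure D4:**
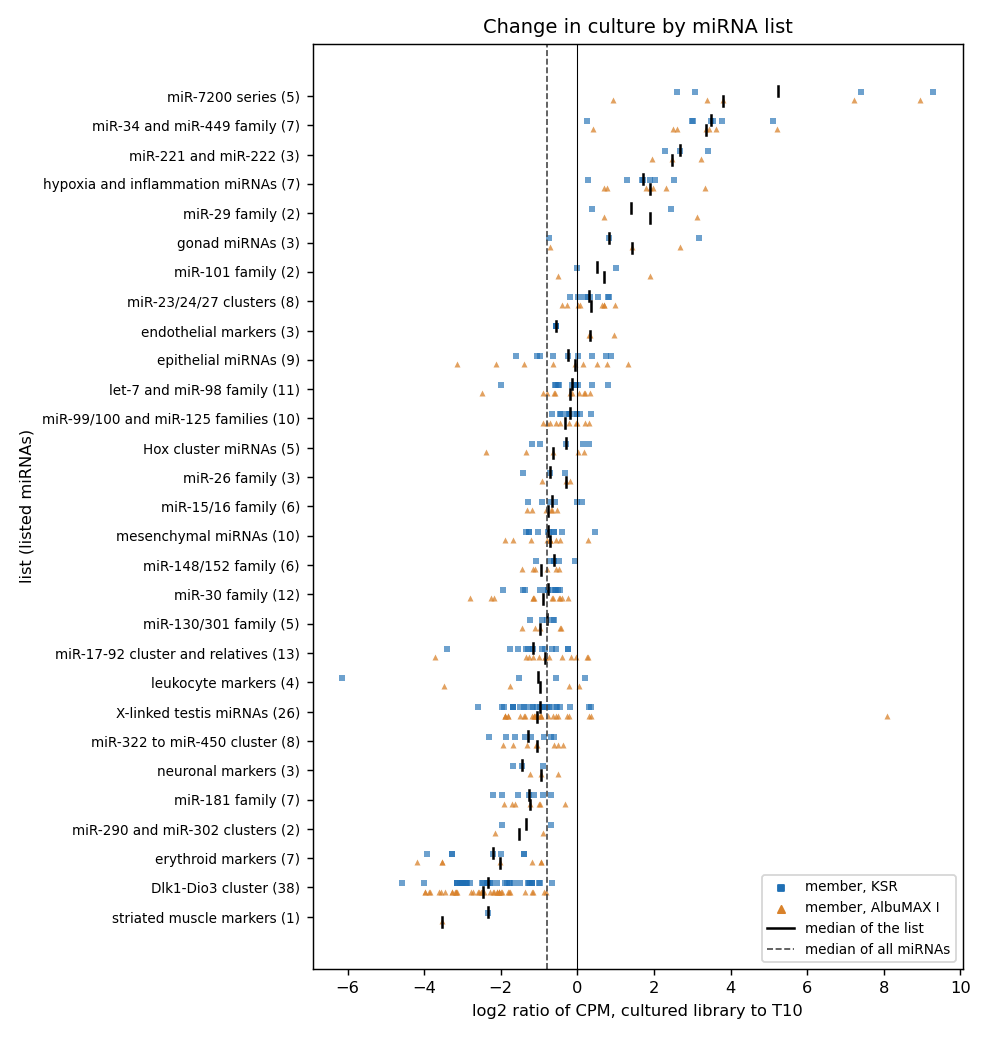
Log2 ratios to T10 (x axis) of the members of each list (y axis, number listed in brackets, ordered by median), with KSR as squares, AlbuMAX I as triangles and black ticks for the list medians. The miR-7200 series, the miR-34/449 miRNAs (3.49 and 3.35) and miR-221 with miR-222 are at the top, and the Dlk1-Dio3 locus (-2.33 and -2.47) and the erythroid markers (-2.20 and -2.02) near the bottom, to the left of the median of all miRNAs (dashed).

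Marker miRNAs of other cell types were read in the same way. Of the 7 listed erythroid miRNAs 5 were lower in both media (4 with the median of ratios), against 32.5% of all miRNAs. The sum of all 7 was 2987 CPM in T10, 1126 CPM in T10-12K and 1525 CPM in T10-12A. Most of the sum in T10 came from miR-486a-5p (1476 CPM) and miR-486b-5p (1472 CPM), and neither was called in both media. In the younger set the sum was 3376 CPM in T6, 5136 CPM in T6-12K and 889 CPM in T6-12A, so it was higher with KSR there. miR-451a and miR-144-3p, which define red cells, were at 6.87 and 6.79 CPM in T10 and listed at 0 in both cultured libraries. miR-451a was at least 9.72-fold lower with KSR and at least 11.6-fold lower with AlbuMAX I. miR-486a-5p, whose reads are hard to separate from those of miR-486b-5p, was at 1476, 564 and 762 CPM. Of 4 leukocyte miRNAs 2 were lower (1 with the median of ratios), with sums of 199, 104 and 133 CPM. miR-142a-5p, the most specific of them, was at 8.81, 10.2 and 8.99 CPM, and miR-150-5p at 2.02 CPM in T10 and 0 in both cultures. miR-342-5p was at 49.8 CPM in T10, with log2 ratios of -6.14 with KSR and -3.47 with AlbuMAX I. Its lowest read number over the 3 libraries was 5. The other arm, miR-342-3p, had log2 ratios of -0.57 and -0.21 and was not called. The muscle miRNA miR-133a-3p was at 30.4 CPM in T10, 6.08 CPM in T10-12K and 2.60 CPM in T10-12A, lower in both media. Of 3 neuronal miRNAs, miR-9-5p (86.1, 26.7 and 36.8 CPM) was lower in both media, and none was with the median of ratios.

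None of the 3 endothelial miRNAs was called in both media, and in each the level was higher with AlbuMAX I than with KSR. miR-126a-3p was at 33.1 CPM in T10, 22.3 CPM in T10-12K and 64.2 CPM in T10-12A, a log2 ratio between the media of 1.52 (1.27 to 1.78). Of 10 mesenchymal miRNAs 2 were lower in both media, against 32.5% of all miRNAs. They were miR-145a-5p (91.0, 37.6 and 39.4 CPM) and miR-214-3p (71.8, 28.3 and 19.3 CPM), while miR-143-3p was at 145909, 199649 and 176083 CPM. None of the 10 was lower with the median of ratios. The epithelial list held 9 miRNAs and 1 shared fall, miR-205-5p (2.16, 0 and 0.828 CPM), and with the median of ratios it held 0 falls and 3 rises. miR-429-3p of that list was at 114, 190 and 284 CPM, past 2-fold with AlbuMAX I alone. The liver miRNA miR-122 was not listed. What these cell types add to any of the changes above was not tested.

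The media gave similar miRNA profiles. The study reports smaller explants with AlbuMAX I, often with aberrant nuclei, and it based its cytology on the KSR cultures only. Among the 319 miRNAs compared between them, 226 were within 1.5-fold and 36 were at least 2-fold apart, 18 of them higher with each supplement. The median size of the log2 ratio between the media was 0.35 over all miRNAs and 0.20 over those averaging 100 CPM or more. Differences of 2-fold between the media numbered 23 below 10 CPM, 12 between 10 and 100 CPM and 1 above, so they were most frequent among the least abundant miRNAs.

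By the rule for one medium, no miRNA was higher with KSR only, 7 were lower with KSR only (2.13%), 3 were higher with AlbuMAX I only (0.912%) and 9 were lower with AlbuMAX I only (2.74%). Another 45 passed 2-fold in a single medium but lay between 1.5-fold and 2-fold in the other. Of the 19, miR-5099 alone averaged 100 CPM or more, and the others named below were chosen after their values had been seen. miR-5099 was at 267 CPM in T10, 109 CPM in T10-12K and 181 CPM in T10-12A, log2 ratios of -1.29 (-1.40 to -1.18) and -0.57 (-0.65 to -0.48). The log2 ratio of T10-12A to T10-12K was 0.72 (0.60 to 0.85). Lower with KSR only were also miR-18a-5p (5.00, 1.70 and 6.03 CPM) and miR-17-3p (4.18, 1.84 and 4.97 CPM), neighbours in the miR-17-92 cluster, and miR-181b-1-3p (4.55, 0.989 and 3.67 CPM).

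Higher with AlbuMAX I only was miR-3535, at 2.54 CPM in T10, 2.97 CPM in T10-12K and 11.6 CPM in T10-12A, and its log2 ratio of T10-12A to T10-12K was 1.97 (1.29 to 2.65). For the other pair, miR-129-5p and miR-190b-5p, the interval of the ratio between the media included 0. Lower with AlbuMAX I only were miR-421-3p (47.2, 32.9 and 19.8 CPM), miR-880-3p (34.0, 29.5 and 14.9 CPM) and miR-30f (19.1, 12.9 and 2.72 CPM). miR-141-3p, an epithelial miRNA, was at 5.22 CPM in T10, 4.38 CPM in T10-12K and 0 in T10-12A. The counting interval of the direct ratio excluded 0 for 7 of the 7 lower with KSR only and for 8 of the 9 lower with AlbuMAX I only. The calls rest on these same reads. These calls were sensitive to the scaling. With the median of ratios, 1 of the 7, 1 of the 3 and 4 of the 9 were still called in that medium only.

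A further miRNA was seen in a single cultured library and had no ratio with KSR. miR-465b-5p was listed at 0 in T10 and T10-12K and had 861 reads in T10-12A, or 102 CPM, at least 273-fold above T10. In the other 4 libraries it had 10 reads in T6 and was listed at 0 in the rest. Its close relative miR-465c-5p, which differs by the single substitution U13C counted from the 5′ end of miR-465b-5p, had 38383 reads in T10, 8964 in T10-12K and 9425 in T10-12A.
miR-465b-5p: uAUUUAGAauggugcugaucug
miR-465c-5p: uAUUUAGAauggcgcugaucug
Of the reads on both, miR-465b-5p held 8.37% in T10-12A, and it was listed at 0 in T10 and T10-12K. How reads were divided between them was not tested.

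Families, precursors and neighbours were compared by direction, in a data set where 72.3% of all miRNAs were lower in both media. Of 38 groups of miRNAs with a common seed, 3 were at least 2-fold higher in both media with all their members. These were miR-146, miR-221 with miR-222, and the 3p arms of miR-34b and miR-34c. Another 5 were at least 2-fold lower with all members. Of all miRNAs, 7.9% were 2-fold higher in both media and 32.5% lower. Among the 5 is the group of miR-465a-3p, miR-465b-3p and miR-465c-3p, which are no separate measurements. In 1 group a member was higher and the other lower, miR-7229-5p and miR-411-5p, whose precursors lie on chromosomes 5 and 12. Of the 71 precursors with both arms listed, 70 had ratios for both, 64 of these with the same sign, 6 with opposite signs and 17 at least 2-fold apart. With at least 50 reads for each arm in the 3 libraries, 34 pairs remained, 30 with the same sign and 4 at least 2-fold apart. Those 4 were miR-423, miR-322, miR-202 and miR-28a. No precursor had an arm called higher and the other called lower. Of 258 miRNAs with a position, 135 lay in 30 clusters with gaps of at most 10000 bases, and no cluster held both a shared rise and a shared fall. The mature sequences of 23 rises and 92 falls were in the RefSeq table, with a median length of 22 bases in each, a median GC content of 45.5% in the rises and 47.7% in the falls, and 45.5% over all 288.

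The change in culture was set beside that of the younger explants, which share no library with it. At 6.5 dpp, 27 miRNAs were at least 2-fold higher in both media (8.21%) and 106 lower (32.2%). Of the rises 19 were shared by both ages, 73.1% of those at 10.5 dpp and 70.4% of those at 6.5 dpp. Of the falls 73 were shared, 68.2% and 68.9%. With the median of ratios 38 rises and 34 falls were shared, so the balance of rises and falls depends on the scaling. No miRNA was called higher at one age and lower at the other. Across 328 miRNAs, which are not independent replicates, the mean log2 ratios of both media at the 2 ages had a Pearson r of 0.870, as a description.

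Some of the rises differed in size with the starting age. miR-449a-5p went from 6.05 CPM to 208 and 224 CPM in the cultures of 10.5 dpp testis, and from 8.01 CPM to 46.3 CPM with KSR and 166 CPM with AlbuMAX I in those of 6.5 dpp testis. miR-34c-5p reached 1588 and 1445 CPM from 142 CPM at 10.5 dpp, and 514 and 1193 CPM from 59.9 CPM at 6.5 dpp. At 10.5 dpp both media gave nearly equal levels of these miRNAs, and at 6.5 dpp the level with AlbuMAX I was the higher. miR-210-3p (mean log2 ratio of both media 2.42 at 10.5 dpp and 1.41 at 6.5 dpp) and miR-375-3p (2.92 and 1.63) had larger ratios in the older explants. miR-146a-5p (2.68 and 2.69), miR-127-3p (-1.87 and -1.80) and miR-541-5p (-1.99 and -2.02) had nearly the same ratio at both ages. These differences between the ages were not tested, since each value rests on 1 library per medium.

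**Figure D5:**
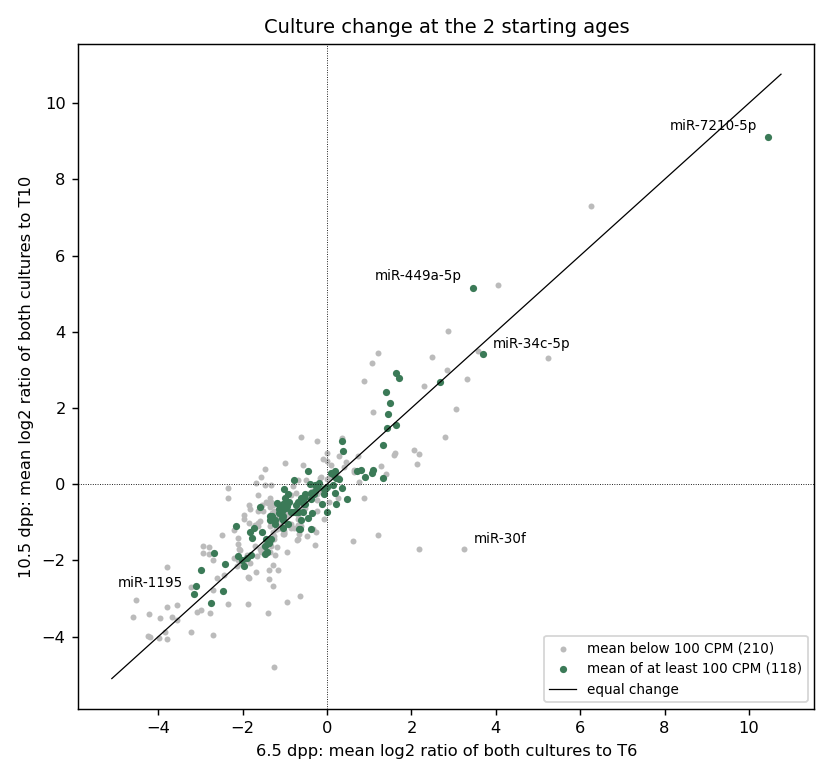
Mean log2 ratio of both cultured libraries to their start, at 6.5 dpp (x axis) and 10.5 dpp (y axis), for 328 miRNAs, with those of at least 100 CPM in green and a line of equal change. Points follow the line from miR-1195 (-3.15 and -2.88) to miR-7210-5p (10.46 and 9.11), and miR-30f (3.25 and -1.69) stands apart.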

How the data were processed

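Small RNA of mouse testis was sequenced on an Illumina HiSeq instrument, with 1 library per condition. According to the methods of the study, adaptors were trimmed and reads were aligned with Bowtie to mm10 and then to miRBase 21, and miRNAs under 50 reads were discarded. The submitters' processing notes also name FastQC, HTSeq and DESeq. The authors deposited 1 signal per miRNA and library, in which reads are divided by 1 factor per library. How the factors were made, and how reads that match several miRNAs were counted, are not given in the sources used here.

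The signal was divided by the worth of 1 read, the step between low values (0.648 in T10, 0.976 in T10-12K and 0.835 in T10-12A). Below 10000 reads, 100% of the values lay within 0.006 of a whole number of reads times that step, in units of the signal. The step was tested on simulated data. Reads were scaled to the sum of the listed reads. Values at 0 were set to 5 reads. No count test was run, since no condition had a replicate, and the unit was the one found in the files, as the design had allowed. The lowest value above 0 stood for 7 reads in T10 and 5 reads in both cultures. The 95% intervals of ratios were computed on a log scale from the read numbers.

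The members and lists were chosen with earlier results of these data known. Named miRNAs are, among those averaging 100 CPM or more over the 3 libraries, the 10 largest shared rises and falls, up to 5 per medium and direction, the 10 most abundant in T10, those the study names, and the members of the lists. Any other name was chosen after the values had been seen. Sequences are from RefSeq and positions from GENCODE mouse release 21, both on GRCm38. Other scalings (median of ratios, trimmed mean of M-values with 30% of M and 5% of A trimmed, deposited values, sum without miR-10b-5p), a pseudocount of 1 CPM, filters and other thresholds were run as alternatives. The scripts used pandas 2.3.3 with numpy 2.4.6, scipy 1.17.1 for intervals and matplotlib 3.10.9 for plots, under Python 3.11.15.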

Additional observations from a re-analysis of the deposited data

Results flagged for a closer look

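For 6 miRNAs the change in culture had opposite signs at the starting ages, with every cultured library on its side and beyond counting error. The difference between the ages was not tested. The value at 10.5 dpp less the value at 6.5 dpp, each a mean log2 ratio of both media, came to -0.46 for miR-192-5p, 0.81 for miR-378a-3p, 0.90 for miR-532-5p, -0.74 for miR-145a-3p, 1.57 for let-7d-3p and -4.95 for miR-30f. miR-192-5p was at 2084, 1962 and 1912 CPM in T10, T10-12K and T10-12A, and at 1240, 1448 and 1733 CPM in T6, T6-12K and T6-12A. let-7d-3p was at 51.9, 89.9 and 65.8 CPM in the older set and at 96.2, 45.2 and 50.8 CPM in the younger. miR-30f had 19.1 CPM in T10 against 0.973 CPM in T6, and the cultured libraries lay between 2.72 and 12.9 CPM. With the median of ratios or the trimmed mean of M-values none of the 6 was opposite at the ages with every cultured library on its side. For miR-30f the log2 ratios were -0.57 with KSR and -2.81 with AlbuMAX I at 10.5 dpp, against 3.12 and 3.39 at 6.5 dpp. The median of ratios shifts the ratios at 10.5 dpp up by 0.71 with KSR and 0.69 with AlbuMAX I.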

How the results depend on the processing

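No paired analysis was possible because the labels carry no replicate numbers that groups share and each condition had 1 library. With the median of ratios, 50 miRNAs were higher and 55 lower in both media, 2 higher with KSR only, 6 higher and 18 lower with AlbuMAX I only, 38 and 34 were shared by both ages, and the medians of all miRNAs were -0.049 (KSR) and -0.083 (AlbuMAX I). With the trimmed mean of M-values, these were 50 and 54, 2 higher with KSR only, 19 lower with AlbuMAX I only, 39 and 34 at both ages, and 0.0018 and -0.10. With the values as deposited, 22 were higher and 150 lower in both media, 1 was higher and 4 lower with KSR only, 4 lower with AlbuMAX I only, and the medians were -1.09 and -1.08. Without miR-10b-5p in the sum, 1 was higher with KSR only and the medians were -0.64 and -0.61. With a pseudocount of 1 CPM, 1 was higher with AlbuMAX I only and the medians were -0.74 and -0.73. Limited to miRNAs averaging 100 CPM or more, 12 were higher and 25 lower in both media, 1 lower with KSR only, 0 higher and 0 lower with AlbuMAX I only, 10 and 18 at both ages, medians -0.56 and -0.50, because fewer miRNAs were tested. With at least 50 reads in each library, these were 16 and 50, 1 lower with KSR only, 0 higher and 3 lower with AlbuMAX I only, 12 and 30 at both ages, and -0.61 and -0.60, for the same reason. At 4-fold, 40 were lower in both media, and 11 and 25 at both ages. With 2-fold between the media required, 3 were lower with KSR only and 5 with AlbuMAX I only. The medians of 10 of 29 lists changed sign under an alternative. Low miRNAs were limited by depth, as 5 reads were worth 0.373 CPM in T10, 0.707 CPM in T10-12K and 0.592 CPM in T10-12A.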
